A study of Mus musculus with 12 samples.

Results

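The 6 genes described here are the adult globins Hba-a1, Hba-a2, Hbb-b1 and Hbb-b2 and the red cell genes Alas2 and Slc4a1, out of 34797 gene names on the array. They were taken by the gene name given to each probe, together with any adult globin probe whose name starts with Hba- or Hbb-b. Each of the 6 had 1 probe, and the name search found no further adult globin probe. They were chosen by their levels on these arrays under diethylnitrosamine (DEN) and retinoic acid, which were already known, so those levels are described here without a test.

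Liver RNA of wild-type male ICR mice, an outbred stock, was measured on 12 Agilent 1-colour mouse arrays, with 1 array for each of 6 treatments at day 2 and day 7. The treatments were all-trans retinoic acid with DEN (ATRA+DEN), DEN, ATRA, vehicle (plain drinking water), small interfering RNA (siRNA) against G0s2, and control siRNA. The mice were bought at 5 weeks of age and adapted for 1 week. DEN, an alkylating agent that causes liver tumours, was dissolved at 80 mg/L (a daily dose near 400 µg), and ATRA, the active form of vitamin A, at 30 mg/L (near 150 µg daily). The siRNA, 1.6 nmol in a lipid carrier, was injected into a vein. By the protocol this was done 1 day before DEN, but the labels of the 4 siRNA arrays name no DEN, so exposure of those mice to DEN is unclear. Nor is it said if RNA came from single animals or pools. No group has a second array, so no value of a single array carries an error.

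Haemoglobin, the oxygen carrier of red blood cells, is built from alpha globin chains (Hba genes), beta globin chains (Hbb genes) and haem. Alas2 encodes the red cell form of the enzyme that starts haem synthesis, and Slc4a1 encodes band 3, the anion exchanger of the red cell membrane. Adult red cells are made in bone marrow and, in mice, also in spleen, and young red cells still hold globin RNA as they circulate. The liver makes red cells in the fetus, and adult liver is filled with blood, so liver RNA contains red cell RNA. In RNA of a whole tissue, fewer cells of a type and less RNA per cell cannot be told apart.

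The probes are 60 bases long, and 3 of them are shown because they define which transcript was read. The Hba-a1 probe lies on chromosome 11 at 32183955 to 32184014 and the Alas2 probe on chromosome X at 147004993 to 147005052, both on the plus strand of mouse build mm9. The Hbb-b2 probe has no mm9 position in the array files.
Hba-a1 probe: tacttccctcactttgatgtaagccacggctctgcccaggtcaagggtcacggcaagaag
Hbb-b2 probe: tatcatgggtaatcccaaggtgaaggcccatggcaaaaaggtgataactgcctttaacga
Alas2 probe: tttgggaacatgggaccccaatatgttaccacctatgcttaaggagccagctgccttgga
The array files list both alpha globin transcripts for each alpha probe, so Hba-a1 and Hba-a2 cannot be told apart by these probes. The accession of the Hbb-b1 probe belongs to Hbb-bt in RefSeq (GRCm38.p6). A further beta globin probe, named Beta-s on the array, belongs to Hbb-bs and is not among the 6. Inbred mouse strains carry different beta globin haplotypes, some with Hbb-bs and Hbb-bt and others with Hbb-b1 and Hbb-b2, and the haplotype of these mice is not given.

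The promoters of these genes are shown because the globin probes moved together and the Alas2 probe did not move with them. RefSeq (GRCm38.p6) sequences were available for Hba-a1, Hba-a2, Hbb-bt, Hbb-bs and Alas2, each ending 1 base before the transcription start. The 150 bases shown lie at chr11:32283522-32283671 on the plus strand for Hba-a1, chr7:103813924-103814073 on the minus strand for Hbb-bt, chr7:103827929-103828078 on the minus strand for Hbb-bs, and chrX:150547267-150547416 on the plus strand for Alas2. Capitals mark 4 short motifs on either strand, which are GATAA, the CACCC box, the CCAAT box and the TATAA box, and runs over 5 capitals hold neighbouring or overlapping copies. GATA factors and CACCC-binding factors of the Klf family are known regulators of red cell genes.
Hba-a1 promoter: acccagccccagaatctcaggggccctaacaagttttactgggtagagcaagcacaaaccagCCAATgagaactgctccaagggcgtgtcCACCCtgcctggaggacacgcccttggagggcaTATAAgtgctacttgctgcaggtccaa
Hbb-bt promoter: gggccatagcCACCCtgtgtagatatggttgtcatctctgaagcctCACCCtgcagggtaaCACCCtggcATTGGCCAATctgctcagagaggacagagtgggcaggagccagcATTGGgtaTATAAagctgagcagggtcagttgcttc
Hbb-bs promoter: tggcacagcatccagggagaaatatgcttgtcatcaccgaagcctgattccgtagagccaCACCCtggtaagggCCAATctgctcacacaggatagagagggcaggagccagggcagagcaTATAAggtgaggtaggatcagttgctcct
Alas2 promoter: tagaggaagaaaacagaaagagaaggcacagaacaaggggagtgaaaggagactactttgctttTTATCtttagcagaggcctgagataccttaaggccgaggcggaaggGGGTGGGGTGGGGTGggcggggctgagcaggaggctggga
The Hba-a1 and Hba-a2 windows are the same over 297 of 297 bases once shifted by 3. The nearest TATAA lies 27 bases before the start in Hba-a1, 28 in Hbb-bt and 29 in Hbb-bs. The nearest CACCC lies 60 bases before it in Hba-a1, 89 in Hbb-bt and 90 in Hbb-bs. The Alas2 window holds GATAA on the opposite strand 86 bases before the start, CACCC 3 times on the opposite strand, and no CCAAT. Over the 250 bases before the start, each of the 4 globin promoters and that of Alas2 holds GATAA 1 time. CACCC occurs there 2 times in Hba-a1 and in Hba-a2, 3 in Hbb-bt, 1 in Hbb-bs and 3 in Alas2. These letters are common: of 32851 mouse promoters of the same length, 22.6% hold GATAA, 52.0% CACCC, 33.9% CCAAT and 22.8% TATAA. A match is a description of the letters and not a binding site.

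The share of the 55681 probes with signal well above background was 41.0% to 50.7% per array, with none saturated. Levels below are log2 intensities minus the 75th percentile of the array, so that 0 is that percentile. Of the 6 members, 5 were well above background on all 12 arrays and Slc4a1 on 10, so all 6 were among the 29302 probes tested, those above background on at least 2 arrays. All 14 hepatocyte markers measured were above background on every array. For 3 day-7 arrays the treatment characteristic differs from the title: the array titled DEN is called ATRA there, that titled ATRA+DEN is called DEN, and that titled ATRA is called ATRA+DEN. Titles are used throughout. Phlda3, a target of the DNA damage factor p53 picked after its values were seen, had day-7 levels of 5.89 in ATRA+DEN, 6.36 in DEN, -1.02 in ATRA, -0.59 in vehicle, 6.03 in G0s2 siRNA and 4.96 in control siRNA. At day 2 the levels of Phlda3 were 3.20 in ATRA+DEN, 3.70 in DEN, -1.49 in ATRA, -1.32 in vehicle, 2.39 in G0s2 siRNA and 3.46 in control siRNA. By the titles it was thus high on all 4 DEN arrays and on all 4 siRNA arrays.

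Hba-a1, Hba-a2 and Hbb-b1 were lowest on the 4 DEN arrays, Hbb-b2 was so on 3 of them, and all of these globin probes were highest on the day-7 siRNA arrays and the day-2 vehicle array. Hba-a1, an alpha chain gene, had day-7 levels of 2.91 in ATRA+DEN, 2.71 in DEN, 3.83 in ATRA, 4.51 in vehicle, 6.88 in G0s2 siRNA and 6.78 in control siRNA. At day 2 the levels of Hba-a1 were 2.61 in ATRA+DEN, 2.98 in DEN, 4.85 in ATRA, 6.24 in vehicle, 4.52 in G0s2 siRNA and 4.10 in control siRNA. The 4 lowest of the 12 values were those of the 4 DEN arrays.

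Hba-a2, the other alpha chain gene, had day-7 levels of 5.06 in ATRA+DEN, 5.14 in DEN, 5.85 in ATRA, 6.62 in vehicle, 8.40 in G0s2 siRNA and 8.37 in control siRNA. Its day-2 levels were 5.18 in ATRA+DEN, 5.41 in DEN, 7.44 in ATRA, 8.75 in vehicle, 7.27 in G0s2 siRNA and 6.47 in control siRNA. Its DEN arrays were again the 4 lowest, and its highest value was that of the day-2 vehicle array. On the linear scale, its intensity ran from 5487 in DEN at day 7 to 66692 in control siRNA at day 7.

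Hbb-b1, a beta chain gene, had day-7 levels of 1.72 in ATRA+DEN, 1.58 in DEN, 2.69 in ATRA, 3.50 in vehicle, 5.92 in G0s2 siRNA and 5.71 in control siRNA. Its day-2 levels were 1.70 in ATRA+DEN, 2.20 in DEN, 4.12 in ATRA, 5.50 in vehicle, 3.72 in G0s2 siRNA and 3.37 in control siRNA. The order of the arrays was close to that of Hba-a1, with the 4 DEN arrays lowest.

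Hbb-b2, the minor adult beta chain gene, had day-7 levels of 0.93 in ATRA+DEN, 0.86 in DEN, 1.87 in ATRA, 2.29 in vehicle, 4.77 in G0s2 siRNA and 3.68 in control siRNA. Its day-2 levels were 0.57 in ATRA+DEN, 1.75 in DEN, 1.99 in ATRA, 3.41 in vehicle, 2.53 in G0s2 siRNA and 1.47 in control siRNA. Here the control siRNA array of day 2 lay below the DEN array of day 2, so the DEN arrays were not the 4 lowest. Between its lowest and its highest array each globin probe spanned 12.9-fold (Hba-a2) to 20.3-fold (Hbb-b1).

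**Figure D1:**
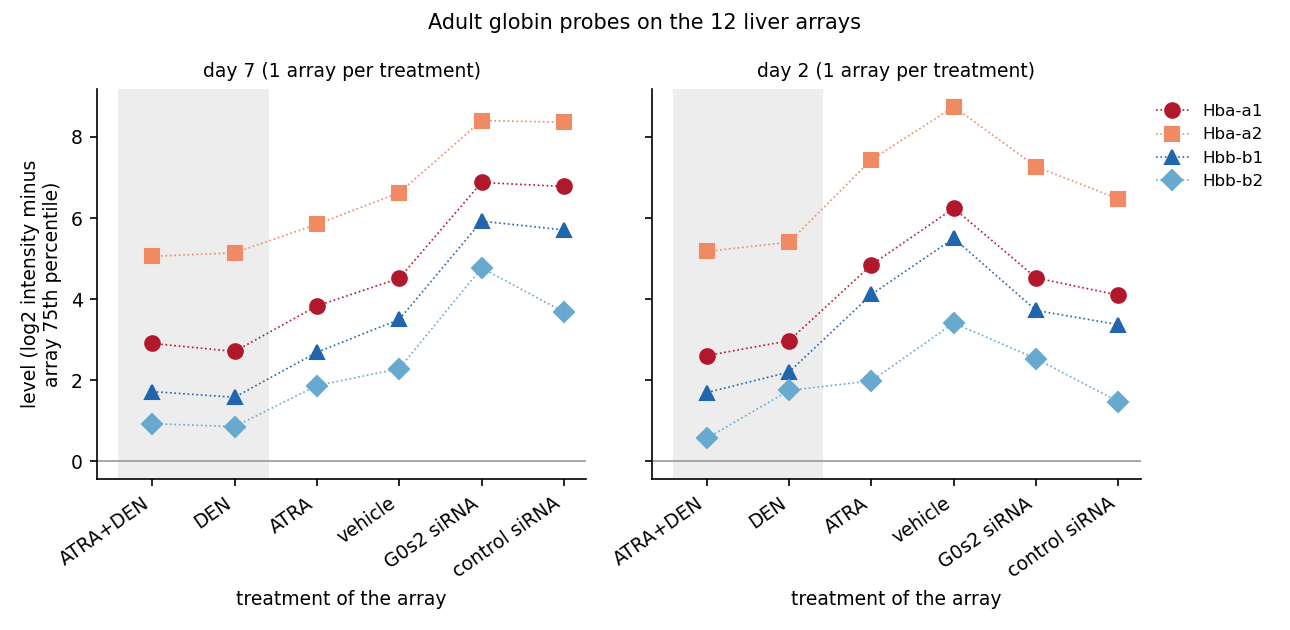
Levels of the 4 adult globin probes (log2 intensity minus the 75th percentile of the array, y axis) on the 6 arrays of day 7 and the 6 of day 2, 1 point per array, with the DEN arrays shaded and dotted lines only linking points of 1 gene. The 4 probes run nearly parallel, from 2.61 to 6.88 for Hba-a1, with the shaded arrays lowest at day 7 for every probe.

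Ordered by the mean of the 4 globin probes, the arrays ran 2.51 (ATRA+DEN day 2), 2.57 (DEN day 7), 2.65 (ATRA+DEN day 7), 3.08 (DEN day 2), 3.56 (ATRA day 7), 3.85 (control siRNA day 2), 4.23 (vehicle day 7), 4.51 (G0s2 siRNA day 2), 4.60 (ATRA day 2), 5.98 (vehicle day 2), 6.13 (control siRNA day 7) and 6.49 (G0s2 siRNA day 7). With 1 array per group, whether neighbours in this order differ beyond the spread of replicates cannot be told. The 4 DEN arrays lay close together (mean 2.71 ± 0.26, SD, n = 4 arrays), and the 4 vehicle and ATRA arrays were spread more widely (mean 4.59 ± 1.02, SD, n = 4 arrays). The 4 siRNA arrays ran from 3.85 to 6.49.

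The DEN comparison asks how liver RNA of mice drinking DEN differs from that of their counterparts of the same day, slide and ATRA status. The mean of the 4 globin probes was 2.57 in DEN and 4.23 in vehicle at day 7, a log2 difference of -1.66, and 2.65 in ATRA+DEN and 3.56 in ATRA, a difference of -0.91. At day 2 it was 3.08 in DEN and 5.98 in vehicle, a difference of -2.89, and 2.51 in ATRA+DEN and 4.60 in ATRA, a difference of -2.08. The DEN array was lower in all 4 pairs, and the DEN arrays spanned 2.51 to 3.08 where those without DEN spanned 3.56 to 5.98.

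Averaged over the 4 pairs, the DEN difference was -2.06 ± 0.97 for Hba-a1, -1.97 ± 1.09 for Hba-a2, -2.15 ± 0.97 for Hbb-b1 and -1.36 ± 0.30 for Hbb-b2 (SD, n = 4 pairs). In the same order, the DEN level was 4.17-fold, 3.91-fold, 4.44-fold and 2.57-fold lower. Alas2 had the opposite sign, at 2.04 ± 1.79, and Slc4a1 differed by -0.36 ± 0.43 (SD, n = 4 pairs each). Of the 6 members, 4 were lower by 2-fold or more on average with 1 sign over all pairs, and 1 was higher. Among all 29302 probes tested, 0.7% were lower and 0.891% higher by that rule. The 4 DEN arrays lay wholly below the 4 vehicle and ATRA arrays for 4 of 6 members, against 1.8% of all probes. Since the members were proposed for these differences, nothing is read from those counts.

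By the treatment characteristic in place of the title, the ATRA+DEN minus ATRA difference of the globin mean at day 7 was 0.99 instead of -0.91. The DEN minus vehicle difference at day 7 was then -1.58, and the mean over the 4 pairs was -1.39 ± 1.68 (SD, n = 4 pairs). The statement that all 4 pairs were lower therefore rests on the titles of the day-7 arrays. The array titled ATRA, called ATRA+DEN by the characteristic, had a Phlda3 level of -1.02, beside -0.59 in vehicle. Those titled DEN and ATRA+DEN had 6.36 and 5.89. Which label is right was not tested.

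**Figure D2:**
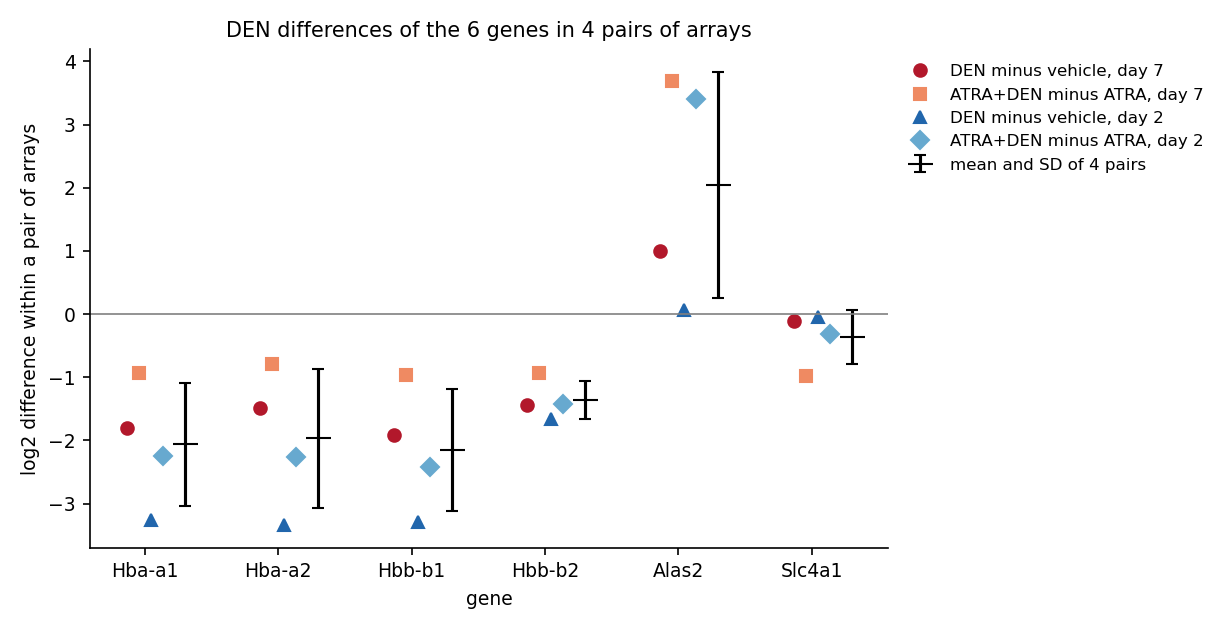
Log2 differences between a DEN array and its counterpart without DEN (y axis) for the 6 genes, 1 coloured point for each of 4 pairs and, in black, their mean with the SD. The globin points lie between -3.34 and -0.79, those of Alas2 between 0.06 and 3.70, and those of Slc4a1 between -0.98 and -0.04.

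The ATRA comparison asks how ATRA alters the liver with and without DEN. It uses the same 8 arrays as the DEN comparison, and its day-7 pairs lie on different slides. The mean of the 4 globin probes differed by 0.08 between ATRA+DEN and DEN and by -0.67 between ATRA and vehicle at day 7, and by -0.57 and -1.38 for the same pairs at day 2. The mean over the 4 pairs was -0.63 ± 0.60 (SD, n = 4 pairs), lower in 3 of 4. By gene, the mean difference was -0.56 for Hba-a1, -0.60 for Hba-a2, -0.64 for Hbb-b1 and -0.74 for Hbb-b2. The rule of a 2-fold mean with 1 sign in every pair took 0 of 6 members in either direction, and it took 0.549% of all probes as lower and 0.543% as higher. The limma fit over all probes called 0% for DEN and 0% for ATRA at an adjusted p under 0.05. At an unadjusted p under 0.05 it took 1584 higher and 1830 lower for DEN, and 948 higher and 748 lower for ATRA.

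Alas2 did not follow the globins. Its day-7 levels were 6.53 in ATRA+DEN, 3.89 in DEN, 2.83 in ATRA, 2.89 in vehicle, 3.83 in G0s2 siRNA and 3.05 in control siRNA. Its day-2 levels were 5.64 in ATRA+DEN, 5.37 in DEN, 2.23 in ATRA, 5.30 in vehicle, 5.83 in G0s2 siRNA and 4.92 in control siRNA. The highest value, the day-7 ATRA+DEN array, was an intensity of 19415, and the lowest, the day-2 ATRA array, was 737. That span was 19.7-fold on the level scale, as wide as that of the globins.

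The Alas2 differences between pairs were uneven. DEN minus vehicle was 0.99 at day 7 and 0.06 at day 2, whereas ATRA+DEN minus ATRA was 3.70 at day 7 and 3.41 at day 2. ATRA+DEN minus DEN was 2.64 at day 7 and 0.28 at day 2, whereas ATRA minus vehicle was -0.06 at day 7 and -3.07 at day 2. The mean DEN difference was thus 3.03 larger with ATRA than without, with both days alike in direction. Since these values chose the members, no test of it is given. With the groups taken from the treatment characteristic, it was -0.67 instead.

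**Figure D3:**
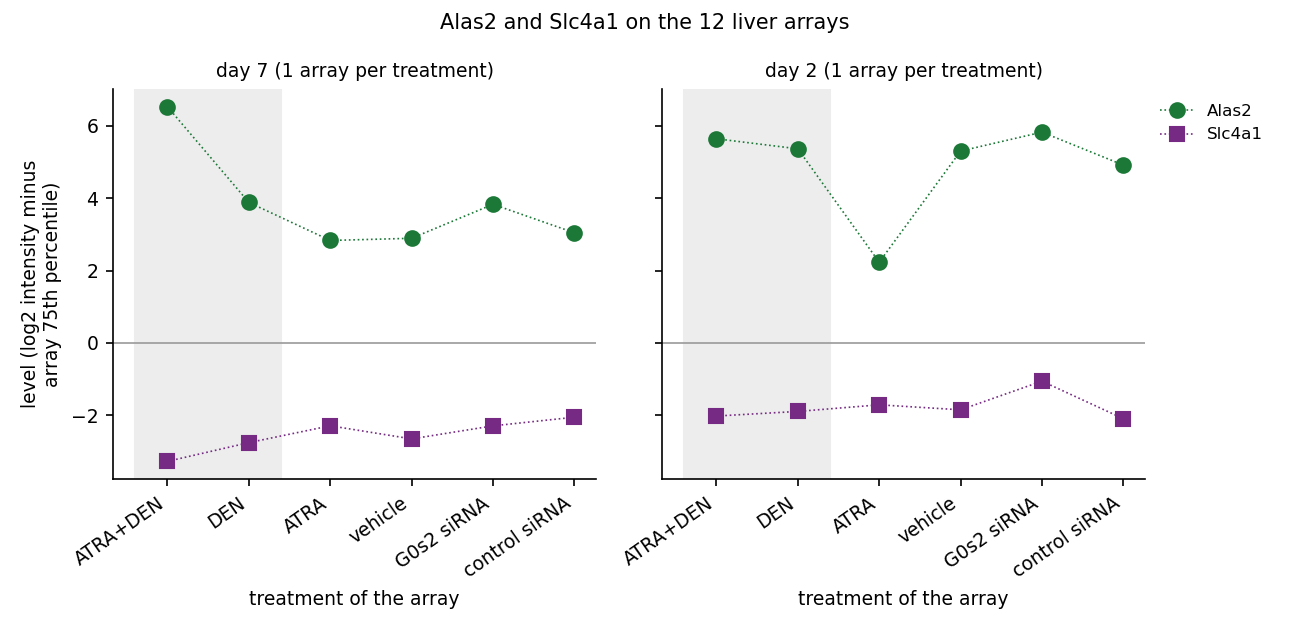
Levels of Alas2 and Slc4a1 (log2 intensity minus the 75th percentile of the array, y axis) on the 6 arrays of day 7 and the 6 of day 2, 1 point per array, with the DEN arrays shaded. Alas2 ranges from 2.23 in ATRA at day 2 to 6.53 in ATRA+DEN at day 7, and Slc4a1 stays between -3.27 and -1.06.

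Slc4a1 (chromosome 11, 102210256 to 102210315, minus strand, mm9) was dim, with levels of -3.27 in ATRA+DEN, -2.75 in DEN, -2.29 in ATRA, -2.65 in vehicle, -2.29 in G0s2 siRNA and -2.05 in control siRNA at day 7. At day 2 its levels were -2.02 in ATRA+DEN, -1.89 in DEN, -1.71 in ATRA, -1.85 in vehicle, -1.06 in G0s2 siRNA and -2.09 in control siRNA. Its arrays with and without DEN overlapped, and its highest array was the day-2 G0s2 siRNA array. Its intensities ran from 21.8 to 76.0, so that its range of 4.65-fold lies near the lower end of what the arrays measure.

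As levels over the 12 arrays, the 4 globin probes correlated with each other at r from 0.90 to 0.99 for the 6 pairs of probes, and at 0.93 to 1.00 after the mean of each day was subtracted. Alas2 correlated with them at -0.38 to -0.30, or -0.37 to -0.26 with the day means subtracted, and Slc4a1 at 0.29 to 0.46, or 0.57 to 0.63. These are descriptions over 12 arrays. All values on an array share its labelling and its scaling.

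The globin probes differed somewhat in how far they moved. Hbb-b2 minus Hbb-b1 within an array ranged from -2.13 (ATRA day 2) to -0.46 (DEN day 2), a span of 1.68. Hba-a1 minus Hba-a2 ranged from -2.74 to -1.53, a span of 1.22, and Beta-s minus Hbb-b1 ranged from -3.76 to -3.01, a span of 0.75. Hba-a1 minus Hbb-b1, an alpha against a beta chain probe, ranged from 0.73 to 1.19, a span of 0.46. In the DEN pairs of day 2 the Hbb-b2 difference was -1.66 where that of Hbb-b1 was -3.30 (DEN and vehicle), and -1.42 where that of Hbb-b1 was -2.42 (ATRA+DEN and ATRA). At day 7 the differences of the pair of probes were closer, at -1.43 for Hbb-b2 and -1.92 for Hbb-b1 (DEN and vehicle) and at -0.94 and -0.97 (ATRA+DEN and ATRA). A change in such a difference shows unequal change and not which probe moved. Any part of the beta globin haplotype in it was not tested.

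**Figure D4:**
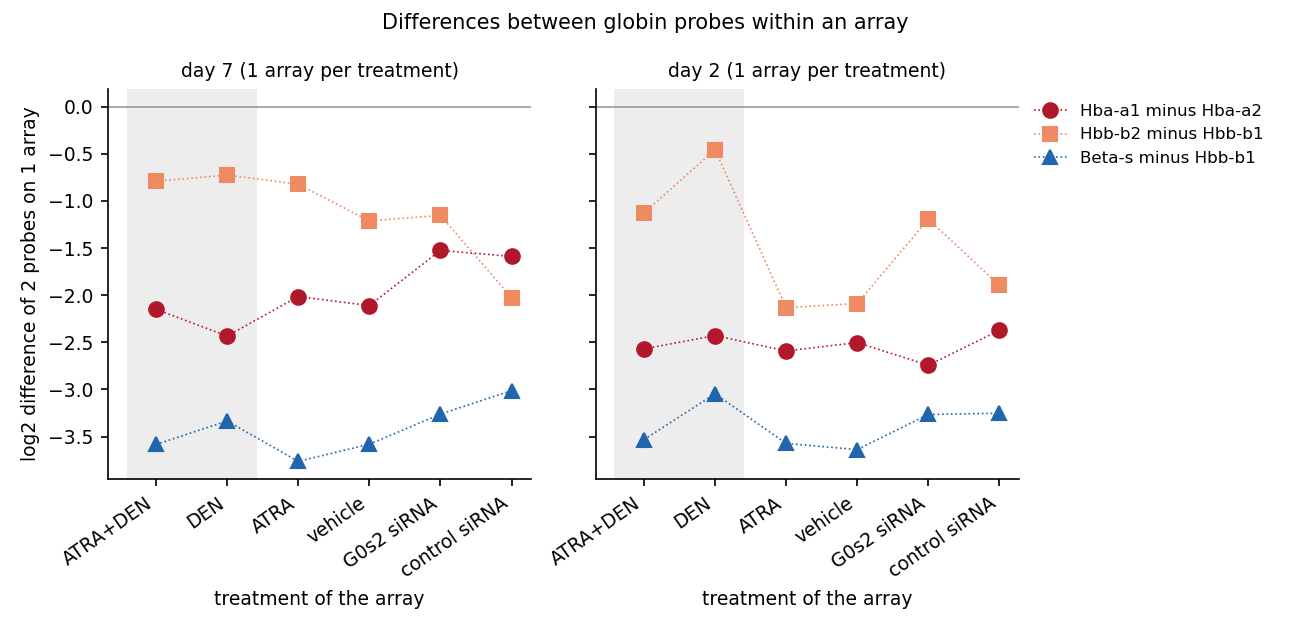
Differences between 2 globin probes on the same array (log2, y axis) on the 6 arrays of day 7 and the 6 of day 2, 1 point per array, with the DEN arrays shaded. Of the 3 differences drawn, Beta-s minus Hbb-b1 spans 0.75, from -3.76 to -3.01, and Hbb-b2 minus Hbb-b1 spans 1.68, from -2.13 to -0.46.

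The siRNA comparison asks what lowering G0s2, an inhibitor of triglyceride breakdown, does in the liver, and its 2 pairs each lie on 1 slide. It was fitted together with the DEN pairs, so its SE and p use a spread shared with them and not that of its own 2 pairs alone. All 6 members had a positive mean difference, and none passed the limma test. The median difference of all probes was also positive, at 0.05, and the share of all probes with a positive sign was not taken. Nothing is read from the count of signs. Hbb-b2 had a level of 4.77 in G0s2 siRNA and 3.68 in control siRNA at day 7 and of 2.53 and 1.47 at day 2, a mean difference of 1.07 (SE 0.19, adjusted p = 0.57, limma), higher in 2 of 2 pairs. The other differences were 0.26 for Hba-a1, 0.42 for Hba-a2, 0.28 for Hbb-b1, 0.85 for Alas2 and 0.40 for Slc4a1, with adjusted p from 0.81 to 0.92 (limma). Of the 6 members, 1 was higher by 2-fold on average with 1 sign in both pairs, where 1.97% of all probes were. By limma 0% of all probes passed, and an unadjusted p under 0.05 took 1092 as higher and 905 as lower.

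Day 7 and day 2 were compared over 6 pairs of 1 treatment, but day coincides with slide and scan, so these cannot be told apart. The globin mean was 6.49 at day 7 and 4.51 at day 2 in G0s2 siRNA, and 6.13 at day 7 and 3.85 at day 2 in control siRNA, differences of 1.98 and 2.28. Without siRNA it was 2.65 and 2.51 in ATRA+DEN, 2.57 and 3.08 in DEN, 3.56 and 4.60 in ATRA, and 4.23 and 5.98 in vehicle, differences of 0.14, -0.51, -1.04 and -1.74. The siRNA pairs and the vehicle and ATRA pairs thus lay on opposite sides of 0.

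Over the 6 pairs, Hba-a1 differed by 0.39, Hba-a2 by -0.18, Hbb-b1 by 0.08 and Hbb-b2 by 0.45, with adjusted p from 0.50 to 0.92 (limma), and Alas2 by -1.04 (SE 0.49, adjusted p = 0.12, limma). Slc4a1 had a log2 difference of -0.78 (SE 0.18, adjusted p = 0.013, limma), with 5 of 6 pairs lower. It was not well above background on the day-7 DEN and ATRA+DEN arrays, so the size of this difference is limited by background. It was 1 of 6 members to pass, where 44.6% of all probes passed (23.2% higher and 21.4% lower). With another background correction (normexp) its difference was -0.29 (adjusted p = 0.035, limma). Without the ATRA+DEN pair, its highest at 0.89, the Alas2 difference was -1.43. The members were chosen from levels on these same arrays, so their p-values for siRNA and day are descriptive and not support.

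The genes whose levels were most like the globins were found by Pearson correlation over the 12 arrays, after the mean of each day was subtracted, among 2095 named genes above background on at least 6 arrays and with an SD of at least 0.5. Of the 10 highest, 9 are named here, and they were Hbb-bs (r = 0.99), Upp2 (0.91), Sds (0.88), Dpt (0.88), Saa4 (0.88), Wfdc12 (0.87), Zdhhc22 (0.86), Slc25a39 (0.86) and Amy2a5 (0.85). Without subtracting day means, r ranged from 0.57 (Zdhhc22) to 0.99 (Hbb-bs) for these 9 genes, and 8 of the 10 were again among the 10 highest. Hbb-bs is the Beta-s probe. Slc25a39 encodes a mitochondrial glutathione carrier, and Upp2 and Sds encode liver enzymes of uridine and serine breakdown.

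Hbb-bs averaged -1.57 on the 4 DEN arrays, 0.31 on the 4 vehicle and ATRA arrays and 1.48 on the 4 siRNA arrays. Upp2 averaged 2.19, 3.09 and 3.92 on the same sets and was lower with DEN in 4 of 4 pairs. The 5 genes with the lowest correlation were Prok1, Atp6v1g2, Omp, Fancc and Ccl2, at r from -0.87 to -0.86. Ccl2, a chemokine that draws monocytes, averaged -0.81 on the DEN arrays, -2.24 on the vehicle and ATRA arrays and -2.05 on the siRNA arrays. Genes at both ends were chosen by correlation with the globin mean, which was lowest on the DEN arrays. Their order over these sets and their DEN directions follow largely from that choice. For Alas2, where the look was added after its values were seen, the highest correlation in the same set of genes was that of Zfp13, a zinc finger gene, at 0.86, and none reached 0.9.

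**Figure D5:**
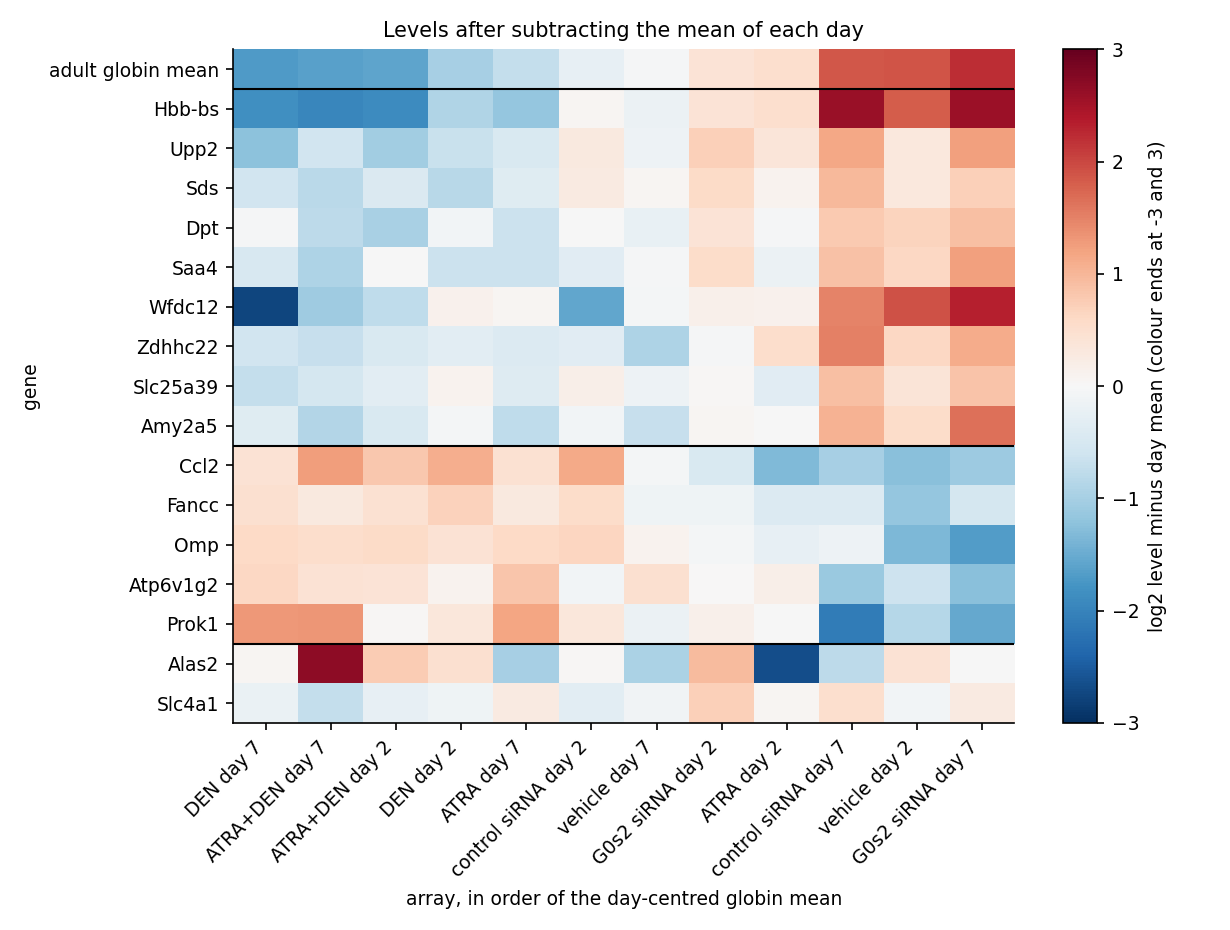
Log2 levels after the mean of each day was subtracted (colour, ending at -3 and 3) for the globin mean, 9 of the 10 genes most like it, the 5 least like it, and Alas2 and Slc4a1 (rows), on 12 arrays (columns). The arrays are ordered by the globin mean after the mean of each day was subtracted. By the way they were chosen, the first 10 rows turn from blue to red across the arrays and the next 5 the other way. Alas2 follows neither order.

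Other red cell genes were read from lists. Of 16 genes of the red cell membrane and its skeleton, 8 were above background on no array, among them Sptb (beta spectrin), Ank1 (ankyrin) and Rhag. For the 8 that were tested, the median DEN difference was -0.20, beside -0.02 for all probes, and none was 2-fold lower or higher on average with 1 sign in every pair. The 4 with the highest levels were Epb41, Dmtn, Gypc and Ermap, which other tissues also use. Dmtn, an actin-bundling protein, differed by -0.84 ± 1.17 with DEN and Epb41, a skeleton protein, by -0.50 ± 0.28 (SD, n = 4 pairs). At day 7 relative to day 2, Dmtn rose by 1.88 (SE 0.35, adjusted p = 0.0055, limma), while Ermap, Xk and Tspo2 fell by 0.91, 0.93 and 0.34 (adjusted p = 0.0057, 0.012 and 0.030, limma). Thus 1 of 8 rose and 3 fell, where 23.2% of all probes rose and 21.4% fell.

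Single probes of that list appeared on a few arrays of 1 slide each. Epb42, the band 4.2 protein that binds band 3, had a level of 0.36 in DEN and 0.20 in vehicle at day 7, the only arrays of their slide, and between -5.90 and -5.09 on the other 10. Tmod1, a cap of actin filaments, had -0.31 in DEN and -1.22 in ATRA at day 2, on another slide, and was below background on the other 10. Neither pattern followed the globins.

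Of 13 erythroid transcription factors and receptors, Gata1, Myb and Trim10 were above background on no array, and 10 were tested. The median DEN difference of those was -0.06, and none was 2-fold lower or higher on average with 1 sign in every pair. The differences ran from -0.99 ± 0.78 for Klf1, lower in 4 of 4 pairs, to 0.57 ± 0.99 for Nfe2 (SD, n = 4 pairs). Klf1 was above background on all 12 arrays and Nfe2 on 7. Klf1 was highest on the day-7 siRNA arrays, at 0.50 in G0s2 siRNA and 1.05 in control siRNA. Both genes were added after their values were seen. The 4 with the highest levels were Hemgn, Zfpm1, Lmo2 and Ldb1. Hemgn, a nuclear protein of blood precursors, was bright in these livers, with levels from 6.60 to 9.42. It differed by -0.64 ± 0.84 with DEN (SD, n = 4 pairs) and rose by 1.59 at day 7 relative to day 2 (SE 0.26, adjusted p = 0.0036, limma). Zfpm1, the partner of GATA factors, rose by 0.55 and Ldb1, a bridging protein of their complex, by 0.75 (adjusted p = 0.019 and 0.013, limma). Epor, the erythropoietin receptor, rose by 0.70 and Tal1, a blood stem cell factor, by 0.32 (adjusted p = 0.0087 and 0.036, limma). In all, 5 of 10 rose and Gfi1b alone fell, by 1.44 (adjusted p = 0.0012, limma), where 23.2% of all probes rose and 21.4% fell. In a fit of only the 20438 probes above background on all 12 arrays, as 7 of these 10 were, 6879 rose and 3482 fell.

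Of 20 late erythroid and reticulocyte genes, Trim58, Slc14a1 and Ypel4 were above background on no array and Ahsp, the chaperone of alpha globin, on 1, the day-2 G0s2 siRNA array. Over the 16 tested, the median DEN difference was -0.08, beside -0.02 for all probes. With DEN, 1 of the 16 was lower by 2-fold or more on average with 1 sign in every pair, where 0.7% of all probes were. That gene is not reported here. The 4 with the highest levels, Hebp1, Prdx2, Bnip3l and Ube2o, differed with DEN by -0.02 ± 0.17, -0.10 ± 0.18, -0.15 ± 0.21 and 0.10 ± 0.10 (SD, n = 4 pairs). At day 7 relative to day 2, 7 of 16 rose and Fam46c alone fell, by 1.07 (adjusted p = 0.0031, limma), beside the same 23.2% and 21.4% of all probes. Of the 20438 probes above background on all 12 arrays, as 15 of these 16 were, 6879 rose and 3482 fell.

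The embryonic beta-like globin Hbb-y, active in the yolk sac, had 2 probes that were high on the same pair of arrays. The brighter probe had day-7 levels of -4.40 in ATRA+DEN and -4.94 in DEN, where it was not well above background, against -0.57 in ATRA and -0.42 in vehicle. Its level was lower by at least 11.0-fold in DEN than in vehicle and by at least 7.81-fold in ATRA+DEN than in ATRA. The second probe had -5.10 in DEN and -0.45 in vehicle, lower by at least 10.8-fold, and -5.58 in ATRA+DEN and -1.31 in ATRA, lower by at least 4.68-fold. These bounds set the bright array against the lowest signal well above background on the dim one. At day 2 no such contrast was seen, as the brighter probe had -3.36 in ATRA+DEN, -2.75 in DEN, -3.51 in ATRA and -2.35 in vehicle. On the day-7 siRNA arrays, where the adult globin mean was highest, neither probe was well above background. The brighter one had -4.95 in G0s2 siRNA and -4.56 in control siRNA, so Hbb-y did not follow the adult globins there. Hba-x, the embryonic alpha-like globin, was above background on no array. Hbb-bh1 and the brightest Hbb-bh2 probe were above background on 5 and 6 arrays, all of day 2. Another Hbb-bh2 probe was above background on 1 array only, DEN at day 7 (-2.18), and a further one on none. Of the 9 embryonic and other globins, Cygb alone was above background on all 12 arrays, with a DEN difference of 0.33 ± 0.43 (SD, n = 4 pairs).

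All 12 genes of haem synthesis and mitochondrial iron were above background on every array. Their median DEN difference was -0.06, beside -0.02 for all probes, with 10 of 12 negative. The share of all probes with a negative sign was not taken, so nothing is read from that count. Alas1 alone was 2-fold lower on average with 1 sign in every pair, where 0.7% of all probes were. Alas1, the form of the first enzyme used in liver and most other tissues, had 4.82 in ATRA+DEN, 5.30 in DEN, 7.84 in ATRA and 6.37 in vehicle at day 2, and 8.01, 8.26, 8.55 and 8.85 in the same order at day 7. Its DEN difference was -1.30 ± 1.17 (SD, n = 4 pairs), opposite in sign to that of Alas2. The other 3 with high levels differed little, with DEN differences of -0.01 ± 0.10 for Urod, -0.06 ± 0.17 for Fech and 0.21 ± 0.16 for Alad (SD, n = 4 pairs). At day 7 relative to day 2, 8 of 12 rose, among them Alad by 0.89 (adjusted p = 0.0030, limma), Urod by 0.56 (adjusted p = 0.0046) and Alas1 by 1.53 (adjusted p = 0.047). The share of all probes that rose was 23.2%. In a fit of only the 20438 probes above background on all 12 arrays, as these genes were, 6879 rose and 3482 fell.

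Of 23 genes of haemoglobin clearance and iron handling, 12 were lower and 11 higher with DEN, with a median of -0.02, and none differed 2-fold on average with 1 sign in every pair. The 4 with the highest levels were Trf (transferrin), Hp (haptoglobin, which binds free haemoglobin), Ftl1 (ferritin light chain) and Hpx (haemopexin, which binds free haem). Their DEN differences were -0.23 ± 0.15, 0.15 ± 0.22, -0.04 ± 0.13 and -0.21 ± 0.09 (SD, n = 4 pairs). Trf fell at day 7 by 0.53 (adjusted p = 0.0066, limma).

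Markers of other cells were set beside the globins as mean levels of the genes above background on all 12 arrays. The 14 hepatocyte genes averaged 8.24 to 8.37 on the 4 DEN arrays, 8.49 to 8.58 on the 4 vehicle and ATRA arrays and 8.33 to 8.61 on the 4 siRNA arrays. The 10 Kupffer cell genes (liver macrophages) averaged 2.05 to 2.41, 2.08 to 2.59 and 1.99 to 4.06 on those sets, and the 8 sinusoidal endothelial genes 1.53 to 2.21, 1.70 to 2.32 and 2.28 to 2.40. The 2 platelet genes averaged -0.03 to 0.66, 0.04 to 0.83 and 0.87 to 1.67, the 5 neutrophil genes 1.58 to 2.27, 1.93 to 2.29 and 1.94 to 2.63, and the 5 lymphocyte genes 0.14 to 0.79, -0.11 to 0.61 and 0.15 to 1.41. The hepatocyte means alone did not overlap between DEN arrays and vehicle and ATRA arrays, though they lay close, at up to 8.37 against 8.49 and more. Of the 14 genes, 11 were lower and 3 higher with DEN, with a median DEN difference of -0.17, beside -0.02 for all probes. The share of all probes by sign was not taken. Among all single probes, 1.8% lay wholly lower on the DEN arrays, and no such share was taken for means of genes, so nothing is read from it. The part of the hepatocyte genes, and that of the blood left in each liver, in the globin differences was not tested.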

How the data were processed

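Per the file headers, each deposited array file is the output of Agilent Feature Extraction 10.7.1.1 (9.5.1.1 per the submitters' processing notes), and its processed intensity per spot has the background removed. A deposited series table gives the authors' normalized intensity per probe on a linear scale. Its sorted values agree within a day to within 0.083%, so it was used as an alternative within a day only.

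Processed intensities of 59305 spots that are not controls were averaged per probe on the log2 scale, and the 75th percentile of each array was subtracted. Probes above background on at least 2 arrays were tested with limma 3.58.1 in R 4.3.3, with p adjusted over all 29302 probes (Benjamini-Hochberg) and a threshold of 0.05. The fits were tested on simulated data. DEN, ATRA and siRNA differences have the pair as a block, and the day difference has treatment. P-values measure the spread between pairs. Tables used Python 3.11.15 and pandas 2.3.3, and plots used matplotlib 3.10.9. A listed gene is read from its brightest probe over all arrays, and 27235 probes were named through the RefSeq accession (GRCm38.p6).

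The members and lists were chosen with earlier results of these data known. The text names every member on every array, the 4 genes of each red cell, haem and iron list with the highest levels and any gene a count of 5 or fewer rests on, and the 10 highest and 5 lowest correlations with the globins. A few genes that these rules would name are not reported here, though they stay in the fits and counts. Lists of other cells are given as means. Alternatives were other normalizations and filters, the treatment characteristic, the series table, slide as a block and leaving out pairs. No column of another sample was present. Protein sequences were not used here.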

Additional observations from a re-analysis of the deposited data

Results flagged for a closer look

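Alas2 had ATRA differences of opposite sign with and without DEN. ATRA+DEN minus DEN was 2.64 at day 7 and 0.28 at day 2, and ATRA minus vehicle was -0.06 at day 7 and -3.07 at day 2, so that the means differed by 3.03. Slc4a1 had the opposite signs, with means that differed by -0.57, at levels near background. Both differences rest on the values that chose the members, so they are given with no test.

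Hba-a2 was lower at day 7 than at day 2 in all 4 pairs without siRNA and higher in both pairs with siRNA, with means 2.54 apart. This was not particular to Hba-a2, as the means of the other adult globins lay further apart. Without and with siRNA they were -0.68 and 2.52 for Hba-a1, -1.01 and 2.27 for Hbb-b1, and -0.44 and 2.22 for Hbb-b2. In the ATRA+DEN pair these others were higher at day 7, by 0.30, 0.02 and 0.36 in the same order. These differences were not tested. Slc4a1 had a G0s2 siRNA difference of -0.24 at day 7 and 1.04 at day 2, a change of -1.28 between single pairs that was not tested.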

How the results depend on the processing

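No group had a second array, so no paired analysis by replicate number was possible because the labels give none. Under quantile normalization, normexp, another scaling, the series table and the treatment characteristic, the DEN difference of the globin mean kept its sign and ran from -1.87 to -1.39, and leaving out each pair gave -2.21 to -1.55. The ATRA difference ran from -0.68 to -0.58, and from -0.87 to -0.39 with pairs left out. With normexp, limma called 16 probes for DEN and 4 for G0s2 siRNA. Leaving out a pair gave 0 to 2 probes for G0s2 siRNA and 10299 to 12153 for day.

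With the characteristic, the DEN difference with ATRA minus that without was -0.67 for Alas2 and 0.41 for Slc4a1, and the DEN difference of Hbb-b2 was -0.86. For day, Hbb-b1 was -0.15 with quantile normalization and -0.042 when scaled by the median of probes above background on all arrays, a scaling that moved the median of all probes by -0.13. With pairs left out, the day difference ran from -0.071 to 0.81 for Hba-a1, -0.59 to 0.21 for Hba-a2, -0.37 to 0.50 for Hbb-b1 and -1.43 to -0.77 for Alas2. For Slc4a1 the siRNA difference ran from -0.24 to 1.04. The causes were not tested. The levels of Slc4a1, a dim probe, are limited by background.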
